A study of Mus musculus with 6 samples.

Results

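The acute phase genes of the liver, and the cytokine receptors, signal transducers and inhibitors that control them, were measured on 6 arrays of liver RNA from mice given FGF15, FGF19 or vehicle. They are 38 genes named by symbol and chosen with earlier results of these data known: 24 plasma proteins and 14 genes of interleukin signalling, chemokine production and leukocyte adhesion. Of these, 37 had at least 1 probe set paired with that gene and no other, out of 12393 genes so measured on the array, and all 37 were among the 9685 genes bright enough to be tested. The only probe set of Trf, which encodes transferrin, was also paired with Srprb, so Trf has no value here.

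Whole liver came from male C57Bl/6 mice, all wild-type, and was read on 1-colour Affymetrix arrays (Mouse Genome 430A 2.0), on which each probe set reports a transcript's brightness as a signal intensity. The animals received vehicle (2 arrays), purified FGF15 (2 arrays) or recombinant FGF19 (2 arrays) through the jugular vein and had no food for the 6 h until liver was taken. FGF15 is a hormone of the mouse ileum and FGF19 its human counterpart, so every group was a wild-type mouse and the FGF19 group received a human protein. No dose, vehicle composition or age was found in the sources used here. Nor do the labels tie arrays to animals, and p-values therefore reflect how far these arrays scatter, and that scatter may be technical.

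In the acute phase response, interleukin 6 binds its receptor and the shared subunit gp130 on hepatocytes, activates the transcription factor STAT3, and raises fibrinogen, haptoglobin and other plasma proteins. Interleukin 1 and tumour necrosis factor act through NF-κB and, with C/EBP factors, raise a further class that includes serum amyloid A and the orosomucoids. SOCS3 and the NF-κB inhibitor IκBα are induced by the same pathways and restrain them, while albumin and transthyretin usually fall.

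Of the 23 plasma protein genes measured, most did not pass the test against vehicle. Saa3 and Orm2 fell between 2.80-fold and 3.97-fold with either hormone, and Crp rose with FGF15. Among the signalling genes Socs3, Steap4 and Cxcl1 rose with either hormone, and Cd14 and Vcam1 fell. FGF15 and FGF19 differed in Saa4, Crp, Il1r1, Nfkbia, Nfkbiz and Cxcl1, among others. Words such as rose and fell are used where limma, fitted across all 9685 genes, gave an adjusted p under 0.05. Differences are of log2(signal + 32), a scale that understates changes of dim genes, with limma's standard error (SE) and n = 2 arrays per group. Fold values come from the same differences, so each compares signal + 32 and is smaller than the ratio of the printed signals.

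With FGF15, 5 of the 37 genes rose (Crp, Il6st, Socs3, Steap4 and Cxcl1), beside 5.91% of all genes tested, and 8 fell (Saa3, Orm1, Orm2, Itih3, Il1r1, Cd14, Nfkbiz and Vcam1), beside 6.67%. With FGF19, 5 rose (Serpina3n, Socs3, Il1rn, Steap4 and Cxcl1), beside 6.29%, and 9 fell (Saa3, Saa4, Orm1, Orm2, Hpx, Itih3, Ambp, Cd14 and Vcam1), beside 7.27%. The median difference was -0.16 over the 37 genes and -0.05 over all genes with FGF15, and -0.18 and -0.07 with FGF19. Many of these genes are bright, and of the 117 genes on the array with a mean signal of 5000 or more 11 fell with FGF15 and 26 with FGF19, beside 2 and 4 of the 16 genes described here in that range. Directly compared, FGF19 was above FGF15 in 6 genes (Saa3, Lcn2, Il1r1, Nfkbia, Nfkbiz and Cxcl1), beside 2.41% of all genes, and below it in 3 (Saa4, Orm2 and Crp), beside 1.89%, with medians of -0.04 and -0.02. The comparisons with vehicle share the 2 vehicle arrays and are not independent of each other. In all, 20 of the 37 genes were called in at least 1 comparison, 10 of the 23 measured plasma protein genes and 10 of the 14 others, beside 19.3% of all genes tested. As the genes were chosen with earlier results of these data known, these counts describe the list and do not test it.

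**Figure D1:**
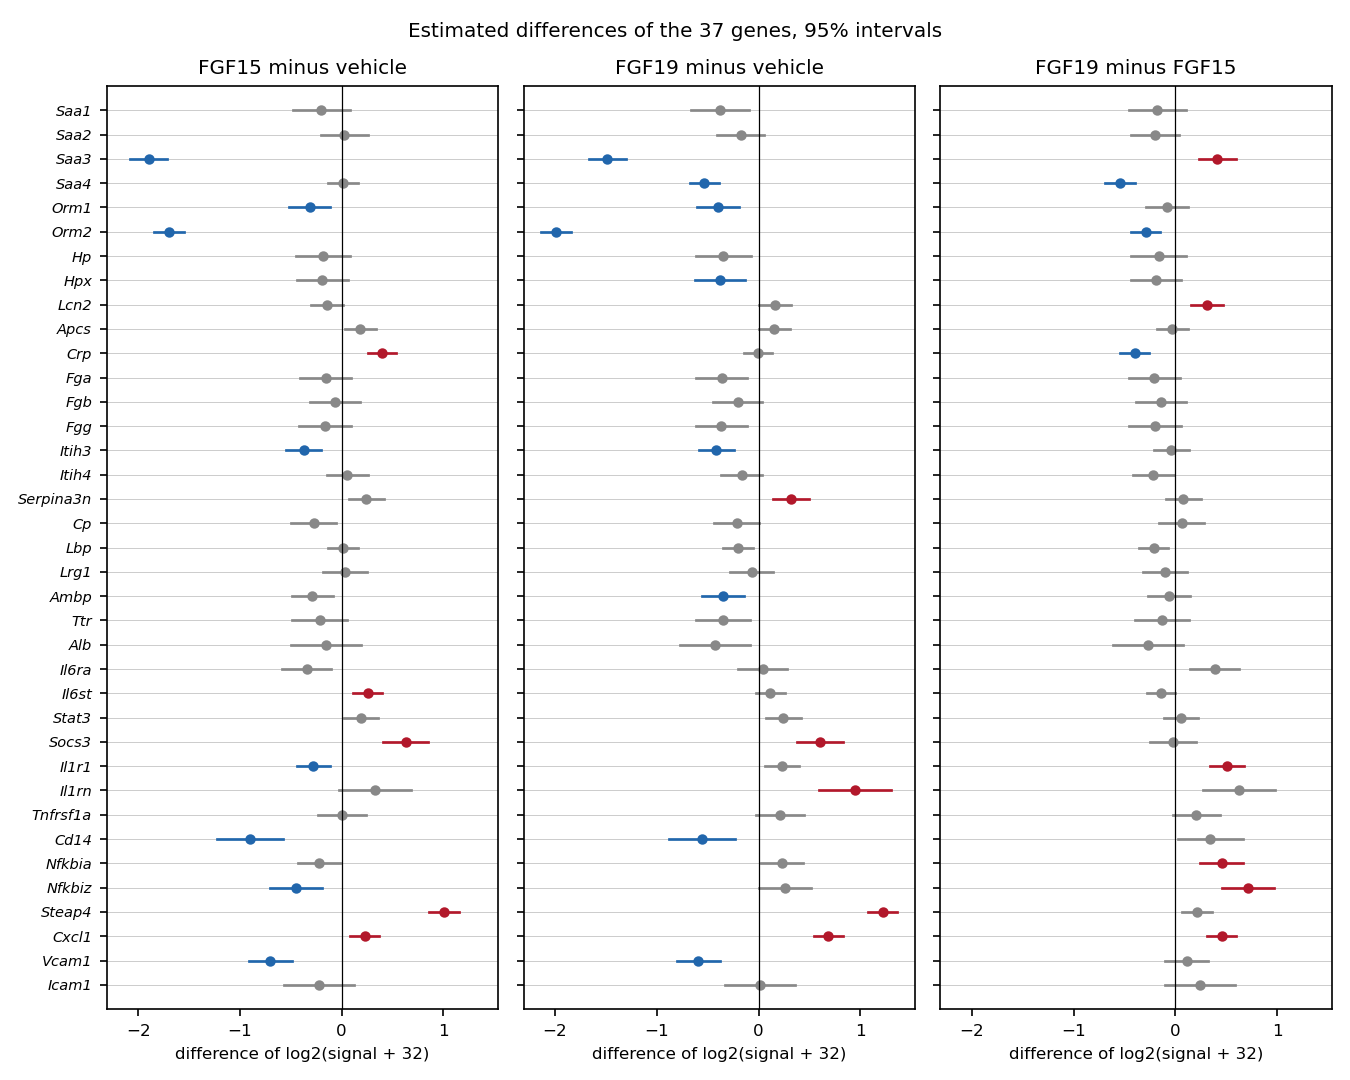
Differences of log2(signal + 32) for the 37 measured genes, with 95% intervals from limma, for FGF15 minus vehicle, FGF19 minus vehicle and FGF19 minus FGF15; red marks genes called higher, blue genes called lower and grey genes not called. Saa3 and Orm2 lie farthest below 0 with both hormones, at -1.90 and -1.70 with FGF15 and -1.48 and -1.99 with FGF19, and Steap4 farthest above with both, at 1.01 and 1.22.

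The counts depended on scaling and on single arrays. When each array was centred on its median signal, which moved the median of all genes from -0.05 to 0.07 with FGF15 and from -0.07 to 0.07 with FGF19, the calls among the 37 genes became 8 higher and 4 lower with FGF15 and 13 higher and 4 lower with FGF19, in place of 5 and 8, and 5 and 9. Over all genes tested the same centring gave 1007 higher and 356 lower with FGF15 (73.9% of calls higher, from 47.0%) and 1214 higher and 329 lower with FGF19 (78.7%, from 46.4%). Without vehicle replicate 1 or replicate 2 the genes that fell numbered 4 with either hormone, and those that rose with FGF15 numbered 2 and 3. Without FGF15 replicate 1, 3 rose and 5 fell with FGF15, and without its replicate 2, 3 rose. Without either FGF19 array more of the 37 genes fell with FGF15. Without FGF19 replicate 2 more fell with FGF19, and more were lower with FGF19 than with FGF15. Over all genes tested, none of these numbers rose. Leaving out an array of a compared group lowered the calls over all genes in both directions. The genes higher with FGF19 than FGF15 numbered 4 without FGF15 replicate 1, 3 without its replicate 2 and 3 without FGF19 replicate 1; those lower numbered 2 when any array but FGF19 replicate 2 was left out. The calls that held under each of the 18 alternative settings were those of Saa3, Orm2, Socs3, Cd14, Steap4 and Vcam1 for FGF15, Saa3, Saa4, Orm2, Socs3, Steap4, Cxcl1 and Vcam1 for FGF19, and Saa4 between the hormones.

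Whole-array properties bear on the brightest genes. The arrays share a scaled trimmed mean of about 200.1, but their median signals ran from 50.8 to 61.4, the vehicle arrays highest. At the top of the scale FGF19 replicate 1 stood apart: of the 117 genes with a mean signal of 5000 or more, 97 were lowest on it, with a median of -0.32 against the vehicle mean, and 15 of the 16 genes described here in that range were lowest on it as well, with a median of -0.51. On FGF19 replicate 2 these 16 genes had a median of -0.13, and on FGF15 replicates 1 and 2 of -0.20 and -0.16. Markers of hepatocytes, the source of most plasma proteins, were all measured above the filter, with a summed signal of 59878 to 60823 with vehicle, 53876 to 57103 with FGF15 and 49709 to 57581 with FGF19. Of 12 markers of Kupffer cells, the resident macrophages, 10 fell with FGF15 and 9 with FGF19, and the summed signal of the list was 6471 to 6575 with vehicle, 3509 to 3633 with FGF15 and 3524 to 3555 with FGF19. Of the hepatocyte markers 1 of 10 rose with each hormone, and 1 fell with FGF15 and 2 with FGF19, while at an unadjusted p under 0.05, 7 were lower with FGF19 (list median -0.21). Of 10 stellate cell markers 3 fell with FGF15 and 2 with FGF19, and of 2 erythroid markers 1 (Alas2) rose with FGF19. The 6 lymphocyte and 3 bile duct markers tested gave 0 calls in limma, and 0 at an unadjusted p under 0.05. In bulk liver, fewer cells of a type and less RNA per cell cannot be told apart.

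The serum amyloid A genes, small apolipoproteins of high density lipoprotein that rise steeply in inflammation, lie side by side on chromosome 7 in the order Saa3, Saa4, Saa1, Saa2 (RefSeq, assembly GRCm38.p6) and did not move together. Saa3 (probe set 1450826_a_at), which in mice is also made by macrophages and other cells outside the hepatocyte, read 922 and 926 with vehicle, 225 and 224 with FGF15, and 330.4 and 289.9 with FGF19. The 3 groups do not overlap, with FGF15 lowest and FGF19 next. The fall was -1.90 ± 0.08 (SE) with FGF15 (adjusted p = 8.8e-07), 3.72-fold, and -1.48 ± 0.08 with FGF19 (adjusted p = 2.2e-06), 2.80-fold, and FGF19 exceeded FGF15 by 0.41 ± 0.08 (adjusted p = 0.018). That last call was lost without FGF15 replicate 1 (adjusted p = 0.0716), without FGF15 replicate 2 (adjusted p = 0.0671) and without FGF19 replicate 1 (adjusted p = 0.134). Kupffer cell markers fell in the same arrays, with a list median of -0.72 with FGF15 and -0.76 with FGF19, and their part in the fall of Saa3 was not tested.

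Saa4, the constitutive member of the family, showed the opposite arrangement. Its signal (1419318_at) was 4622 and 4657 with vehicle, 4665 and 4715 with FGF15, and 3089.9 and 3313 with FGF19. The FGF19 arrays are the low ones, and the FGF15 arrays lie just above vehicle. FGF19 lowered Saa4 by -0.53 ± 0.07 against vehicle (adjusted p = 0.00055) and by -0.55 ± 0.07 against FGF15 (adjusted p = 0.0010), while FGF15 minus vehicle was 0.02, with a 95% interval of -0.13 to 0.16. A second probe set (1419319_at) gave -0.70 for FGF19 and -0.03 for FGF15 against vehicle.

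Saa1 and Saa2, the main circulating acute phase forms, were not called in any comparison. The brighter Saa1 probe set (1419075_s_at) ranged from 8164 to 12657 over the 6 arrays, with the lowest value on FGF19 replicate 1, and differed from vehicle by -0.20 with FGF15 (interval -0.48 to 0.08) and -0.38 with FGF19 (interval -0.66 to -0.10, adjusted p = 0.078). This probe set carries the RefSeq accession of Saa2, so it does not separate the pair; the other (1450788_at), which carries that of Saa1, ranged from 8115 to 11456 and gave -0.17 and -0.31. Saa2 (1449326_x_at) ranged from 7220.3 to 9672, at 0.03 and -0.18.

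The orosomucoids, or α1-acid glycoproteins, are plasma carriers of basic drugs and lipids that rise in inflammation. Orm2 (1420438_at) read 4075 and 4292 with vehicle, 1306 and 1233 with FGF15, and 1039 and 1019 with FGF19. All 4 hormone arrays lie far below both vehicle arrays, with FGF19 lowest. It fell by -1.70 ± 0.06 with FGF15 (adjusted p = 4.8e-07), 3.24-fold, and by -1.99 ± 0.06 with FGF19 (adjusted p = 8.1e-08), 3.97-fold. The difference between the hormones, -0.29 ± 0.06 (adjusted p = 0.032), was lost whichever array was left out, with adjusted p of 0.0668 to 0.202.

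Orm1 (1451054_at), its near neighbour on chromosome 4, was among the brightest genes and changed far less. It read 10015 and 9970.0 with vehicle, 7664 and 8399 with FGF15, and 6946 and 8266 with FGF19. Each hormone array lies below both vehicle arrays, but the hormone groups overlap. The fall was -0.32 ± 0.09 with FGF15, at the edge of the threshold (adjusted p = 0.0498), and -0.40 ± 0.09 with FGF19 (adjusted p = 0.017). The FGF15 call was lost when any vehicle or FGF15 array was left out (adjusted p of 0.105 to 0.245) and the FGF19 call when either vehicle array was (0.105 and 0.124). Between them lies Orm3, which is not among the 38 genes and was looked up after these values were seen: its probe set (1450611_at) read 298 and 278 with vehicle, 196 and 147 with FGF15, and 157 and 139 with FGF19, with differences of -0.66 and -0.83 (adjusted p = 0.0090 and 0.0025 over all probe sets). The orosomucoid transcripts are alike, and probe sets may share signal between them.

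The upstream sequences of the most reduced plasma protein genes are shown because C/EBP factors are known to drive this class. The 250 bases before the RefSeq start of Saa3 (chr7:46715677-46715926 on the minus strand) and of Orm2 (chr4:63362199-63362448 on the plus strand), from GRCm38.p6 and written 5′ to 3′ on the gene's strand, each hold 1 match to the C/EBP motif TTGCNNAA on either strand, set in capitals. It begins 99 bases before the start of Saa3 and 120 bases before that of Orm2.
Saa3: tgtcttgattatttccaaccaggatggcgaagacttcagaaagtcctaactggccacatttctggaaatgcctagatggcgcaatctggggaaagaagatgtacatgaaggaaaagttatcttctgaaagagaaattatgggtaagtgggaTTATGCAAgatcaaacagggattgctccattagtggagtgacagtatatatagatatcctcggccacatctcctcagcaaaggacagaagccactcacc
Orm2: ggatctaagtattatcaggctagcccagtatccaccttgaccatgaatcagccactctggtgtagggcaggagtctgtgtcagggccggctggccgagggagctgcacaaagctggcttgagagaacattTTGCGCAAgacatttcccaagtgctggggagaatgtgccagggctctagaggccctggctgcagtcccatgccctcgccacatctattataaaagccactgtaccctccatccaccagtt
Windows were found for 30 of the 38 genes, and 13 of these (43.3%) held the C/EBP motif, among them Saa1, Saa2, Saa4, Hpx, Lcn2, Fga, Fgb, Cp and Alb, beside 10.8% of 27025 genes with a window of the same length (9.56% of 32851 windows). Saa1, Saa2, Fga, Fgb, Cp (on its brightest probe set) and Alb, which were not called, hold the match as well as Saa3 and Orm2. So do Il1r1, which fell with FGF15 only, and Steap4, which rose with either hormone. A match is a description of letters and not evidence of a bound site.

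**Figure D2:**
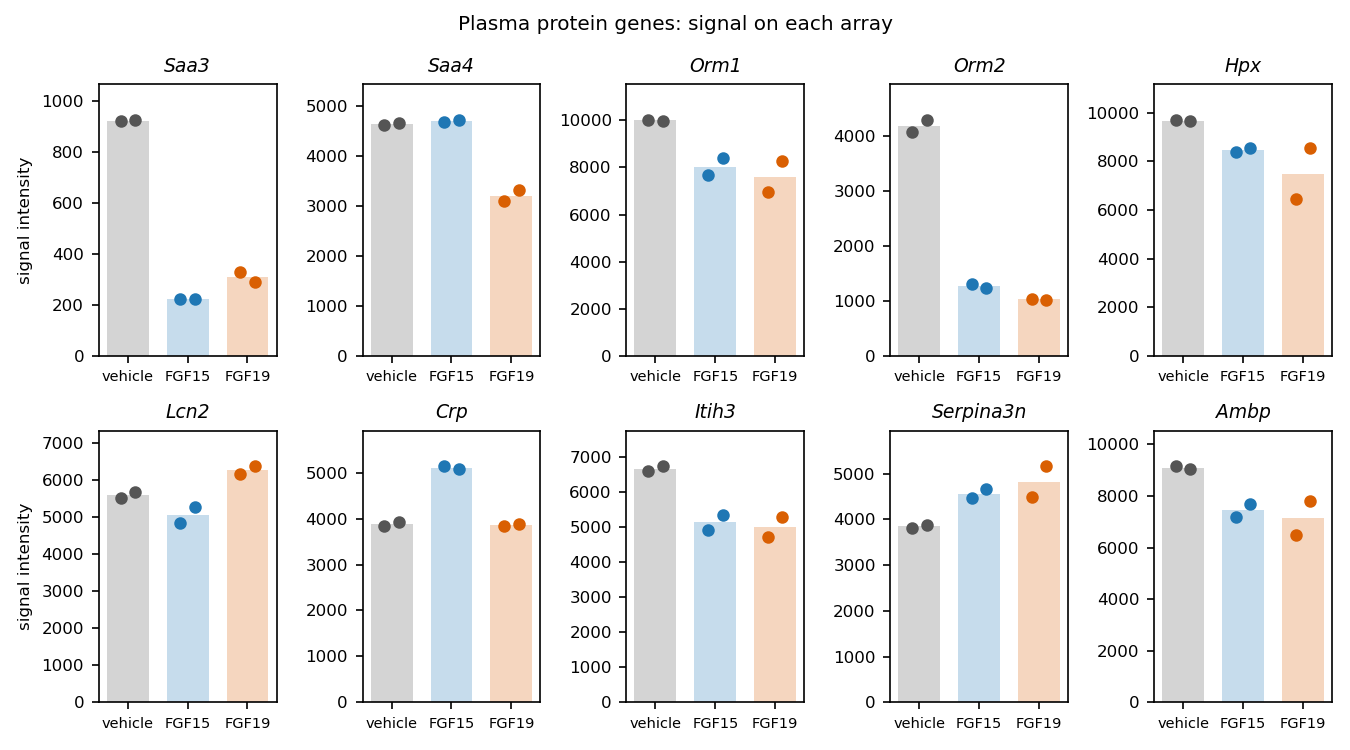
Signal intensity (linear, from 0) on each of the 6 arrays for the 10 plasma protein genes called in at least 1 comparison; points are arrays, in the order replicate 1 and 2, and pale bars are group means. Saa3 and Orm2 are low on all 4 hormone arrays, Saa4 only on the FGF19 arrays (3089.9 and 3313) and Crp is high only on the FGF15 arrays (5134 and 5079); in Hpx and Ambp FGF19 replicate 1 is the lowest array.

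C-reactive protein, a pattern recognition pentraxin that is only weakly inducible in mice, was the 1 of the 23 plasma protein genes measured here to rise with FGF15. Crp (1421946_at) read 3842 and 3926 with vehicle, 5134 and 5079 with FGF15, and 3840.0 and 3873 with FGF19. The FGF15 arrays stand above all others, and FGF19 and vehicle overlap. The rise was 0.39 ± 0.06 (adjusted p = 0.0026), 1.31-fold, and FGF19 lay below FGF15 by -0.40 ± 0.06 (adjusted p = 0.0044); the rise narrowly missed the threshold without vehicle replicate 1 (adjusted p = 0.0514). Its chromosomal neighbour Apcs, which encodes serum amyloid P, the main acute phase pentraxin of mice, ranged from 3463 to 4109 and was not called, at 0.18 (interval 0.03 to 0.34) and 0.15 (0.00 to 0.30).

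Lcn2, the iron-siderophore binding lipocalin, lay on opposite sides of vehicle with the hormones. Its signal (1427747_a_at) was 5526 and 5669.9 with vehicle, 4844 and 5272 with FGF15, and 6162 and 6368 with FGF19. No groups overlap, but neither hormone differed from vehicle by the test (-0.15 and 0.16), and only FGF19 minus FGF15 was called, at 0.31 ± 0.07 (adjusted p = 0.036); this call ended when any array but FGF19 replicate 1 was left out (adjusted p of 0.0511 to 0.277). Serpina3n, a protease inhibitor related to α1-antichymotrypsin, read 3819 and 3868 with vehicle, 4459.5 and 4655 with FGF15, and 4479 and 5156 with FGF19. It rose with FGF19 by 0.32 ± 0.08 (adjusted p = 0.024), and the FGF15 difference of 0.24 missed the threshold (adjusted p = 0.071); without vehicle replicate 1 or replicate 2 the FGF19 call was lost (adjusted p = 0.151 and 0.117).

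Itih3, Hpx and Ambp fell by smaller amounts. Itih3 (1449123_at), a heavy chain of the inter-α-trypsin inhibitors that bind hyaluronan, read 6601 and 6744 with vehicle, 4926 and 5363 with FGF15, and 4716 and 5291 with FGF19, a fall of -0.37 ± 0.08 (adjusted p = 0.012) and -0.42 ± 0.08 (adjusted p = 0.0066). Its neighbour Itih4, an interleukin 6 responsive heavy chain, ranged from 7114 to 9426 and was not called, at 0.05 and -0.16. Hpx, the haem scavenger hemopexin, read 9704 and 9647 with vehicle, 8403 and 8568 with FGF15, and 6465 and 8530.1 with FGF19. Ambp, the precursor of α1-microglobulin and bikunin, read 9150.0 and 9044, then 7198 and 7709, then 6503 and 7825. Hpx and Ambp fell with FGF19, at -0.38 ± 0.11 (adjusted p = 0.0495) and -0.35 ± 0.09 (adjusted p = 0.031). With FGF15 they gave -0.19 and -0.29, not called, and FGF19 minus FGF15 was not called either (-0.19 and -0.06). With quantile normalization the FGF19 differences from vehicle were -0.15 for Hpx and -0.13 for Ambp, not called (limma adjusted p = 0.086 and 0.051). Centring on array medians gave -0.23 and -0.20, not called (0.199 and 0.211), and cyclic loess -0.31 and -0.29, both called (0.013 and 0.0033). Both FGF19 calls were lost when any array but FGF19 replicate 2 was left out, the low FGF19 replicate 1 included (adjusted p of 0.0596 to 0.209 for Hpx and 0.0505 to 0.177 for Ambp). The Itih3 calls were lost without vehicle replicate 1 (adjusted p = 0.088 with FGF15 and 0.0601 with FGF19) and without vehicle replicate 2 (0.103 and 0.0692), and the FGF15 call also without FGF15 replicate 1 (0.0965).

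The remaining plasma protein genes were not called in any comparison. The fibrinogen chains Fga, Fgb and Fgg, adjacent on chromosome 3 and coordinately induced by interleukin 6, ranged from 8683 to 13023, 10065 to 13159.5 and 7138 to 10669, with differences of -0.16, -0.06 and -0.16 for FGF15 and -0.36, -0.20 and -0.36 for FGF19. Haptoglobin (Hp), which binds free haemoglobin, ranged from 6145 to 9188, at -0.18 and -0.35. The lipopolysaccharide binding protein Lbp ranged from 1068 to 1304, at 0.01 and -0.20, and Lrg1, a leucine-rich glycoprotein induced by STAT3, from 5848 to 7228, at 0.03 and -0.07. Albumin (Alb) ranged from 6159 to 10506, at -0.15 (interval -0.50 to 0.19) and -0.43 (interval -0.77 to -0.08), and transthyretin (Ttr), the thyroxine and retinol carrier, from 7809 to 11827, at -0.22 and -0.35, with its other probe sets between -0.20 and -0.23 and between -0.33 and -0.38. In these genes, apart from Lbp, the lowest value was that of FGF19 replicate 1. The 3 measured proteins that usually fall or stay level in inflammation (Alb, Ttr and Ambp) lay below vehicle with both hormones, as did 10 of the 16 induced proteins other than serum amyloid A with FGF15 and 13 with FGF19.

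**Figure D3:**
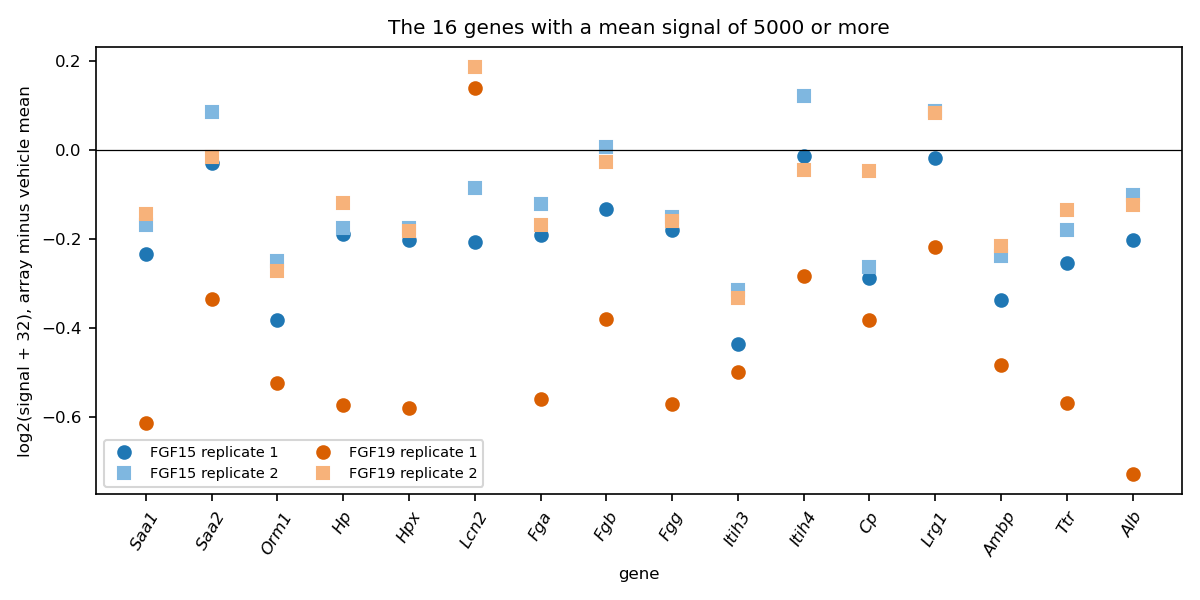
Difference of log2(signal + 32) from the mean of the vehicle arrays on each hormone array, for the 16 genes with a mean signal of 5000 or more. FGF19 replicate 1 is the lowest point for every gene except Lcn2, with a median of -0.51 against -0.20, -0.16 and -0.13 on the other 3 hormone arrays.

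Ceruloplasmin (Cp), the copper-carrying ferroxidase, shows how the choice of probe set matters. Its brightest probe set (1417494_a_at) read 7220.4 and 6948 with vehicle, 5797 and 5895 with FGF15, and 5434 and 6848 with FGF19, and was not called (-0.28 and -0.21). Of its 6 other probe sets, 1417496_at read 2698 and 2775, then 1963 and 1951, then 2051 and 2266, and was lower with FGF15 at -0.48 (adjusted p = 0.0021 over all probe sets) and with FGF19 at -0.34 (adjusted p = 0.012). The probe sets 1417495_x_at and 1448734_at were lower with both hormones as well (-0.41 and -0.38 with FGF15), and 1455393_at was called lower with FGF15 (-0.30) and not with FGF19 (-0.26, adjusted p = 0.073), with no call between the hormones. All 7 lay below vehicle with both hormones. When the probe sets of a gene are counted singly, 13 of the 37 genes have more than 1, 63 probe sets in all.

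**Figure D4:**
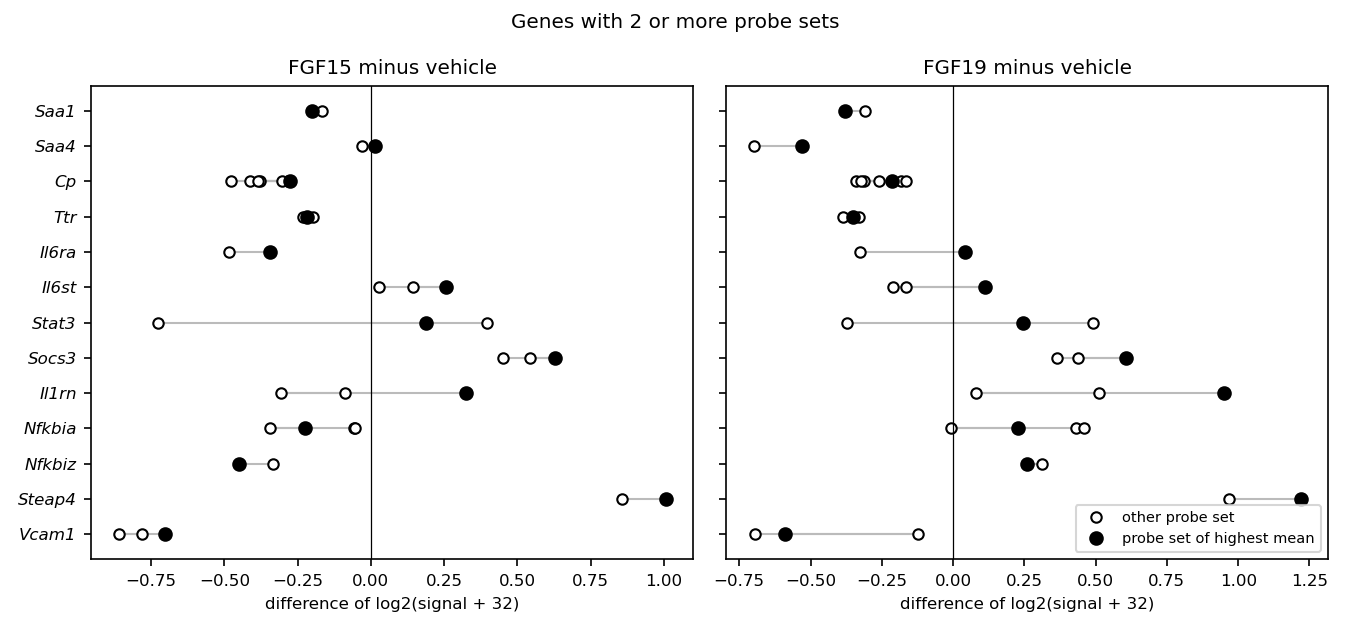
Differences of log2(signal + 32) from vehicle for each probe set of the 13 genes with more than 1, for FGF15 and for FGF19; filled points are the brightest probe set, which stands for the gene, and open points the others. The probe sets of Saa4, Ttr, Socs3 and Steap4 lie on the same side or within 0.03 of 0, whereas those of Stat3 span 0 with both hormones, those of Il1rn with FGF15 and those of Il6ra and Il6st with FGF19.

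Of the interleukin 6 pathway, the feedback inhibitor Socs3 rose with either hormone. Its brightest probe set (1455899_x_at) read 572 and 511 with vehicle, 789.5 and 921 with FGF15, and 908 and 775 with FGF19. The 4 hormone arrays lie above both vehicle arrays and overlap with each other. The rise was 0.63 ± 0.10 (adjusted p = 0.0028), 1.54-fold, and 0.61 ± 0.10 (adjusted p = 0.0032), 1.52-fold, and FGF19 minus FGF15 was -0.02, with an interval of -0.25 to 0.20. Its other probe sets rose too, by 0.54 and 0.45 with FGF15 and 0.44 and 0.36 with FGF19.

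The receptor subunits and STAT3 gave less uniform values. Il6st, which encodes gp130, read 669.9 and 669 with vehicle, 799 and 810.3 with FGF15, and 727 and 726 with FGF19 (1452843_at). The rise with FGF15 was 0.25 ± 0.06 (adjusted p = 0.028) and FGF19 gave 0.11. The other Il6st probe sets did not repeat it: 1421239_at read 213 and 166, then 213 and 209.6, then 153 and 177 (0.14 with FGF15), and 1460295_s_at read 485 and 498, then 479.9 and 524, then 403 and 439 (0.03). The FGF15 call was lost when any vehicle or FGF15 array was left out (adjusted p of 0.0781 to 0.142).

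Il6ra, the ligand-binding receptor chain, was not called on its brighter probe set (1452416_at), which read 345 and 376 with vehicle, 251 and 306 with FGF15, and 402 and 344 with FGF19, at -0.34 (adjusted p = 0.068) and 0.04. Its other probe set (1422270_a_at) read 246 and 223, then 142 and 176, then 174 and 187, and was lower with FGF15 (-0.48, adjusted p = 0.023 over all probe sets). Stat3 read 1291 and 1230.2 with vehicle, 1538 and 1347 with FGF15, and 1479 and 1519 with FGF19 (1426587_a_at), at 0.19 and 0.24, neither called. A second Stat3 probe set (1460700_at) read 892 and 932, then 1204 and 1213, then 1264 and 1328, and was higher with both hormones, at 0.39 (adjusted p = 0.0047 over all probe sets) and 0.49 (adjusted p = 0.0014). The probe set 1424272_at was dim, between 7.18 and 47.3, and gave -0.73 and -0.37 without a call.

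Of the interleukin 1, tumour necrosis factor and endotoxin genes, Steap4 had the largest difference with either hormone on the log2(signal + 32) scale, which understates that of the dimmer Il1rn and Cd14. It encodes a metalloreductase induced by tumour necrosis factor and other cytokines. Its brighter probe set (1460197_a_at) read 1761 and 1672 with vehicle, 3423 and 3533 with FGF15, and 3938 and 4138 with FGF19. Every hormone array is well above every vehicle array, with FGF19 highest. The rise was 1.01 ± 0.06 with FGF15 (adjusted p = 8.9e-06), 2.01-fold, and 1.22 ± 0.06 with FGF19 (adjusted p = 2.1e-06), 2.33-fold; the difference of 0.21 between hormones (interval 0.07 to 0.36) was not called. Its other probe set (1425829_a_at) rose by 0.86 and 0.97.

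The windows before the starts of Socs3 (chr11:117969367-117969616 on the minus strand) and Steap4 (chr5:7960222-7960471 on the plus strand) are set beside each other because these genes rose with either hormone. Capitals mark matches to the STAT motif TTCNNNGAA, the C/EBP motif and the NF-κB consensus, on either strand.
Socs3: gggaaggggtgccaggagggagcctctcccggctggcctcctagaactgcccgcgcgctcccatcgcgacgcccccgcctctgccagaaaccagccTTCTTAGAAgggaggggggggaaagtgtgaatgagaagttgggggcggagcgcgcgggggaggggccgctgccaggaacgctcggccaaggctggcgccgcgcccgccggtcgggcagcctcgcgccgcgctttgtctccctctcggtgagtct
Steap4: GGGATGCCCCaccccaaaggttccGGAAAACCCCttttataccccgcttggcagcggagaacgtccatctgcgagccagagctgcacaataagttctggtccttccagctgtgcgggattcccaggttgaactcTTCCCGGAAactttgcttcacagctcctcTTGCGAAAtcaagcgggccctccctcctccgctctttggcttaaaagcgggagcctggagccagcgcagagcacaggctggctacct
The STAT motif begins 154 bases before the start of Socs3 and 116 bases before that of Steap4, which also holds a C/EBP match from 87 bases and NF-κB matches from 250 and 226 bases before its start. The STAT motif was found in 8 of the 30 windows (26.7%; also Apcs, Fga, Fgb, Itih4, Tnfrsf1a and Icam1) and in 8.13% of all genes with a window (7.02% of windows). Apcs, Fga, Fgb, Itih4, Tnfrsf1a and Icam1 hold it and were not called in any comparison. Cxcl1, which also rose with either hormone, has a window without it.

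Il1rn, the secreted antagonist of the interleukin 1 receptor, was dim and read 48.2 and 30.9 with vehicle, 59.2 and 54.6 with FGF15, and 113 and 97.5 with FGF19 (1451798_at). It rose with FGF19 by 0.95 ± 0.16 (adjusted p = 0.0034), while FGF15 gave 0.32 ± 0.16 and the difference between hormones, 0.63 ± 0.16, missed the threshold (adjusted p = 0.059). The other probe sets gave smaller differences with FGF19 and were not called: 1423017_a_at read 57.7 and 37.3, then 40.3 and 44.2, then 96.5 and 66.5 (0.51 with FGF19), and 1425663_at read 50.6 and 33.6, then 31.1 and 24.2, then 48.9 and 42.8 (0.08). With the mean of the 3 probe sets the FGF19 call was lost (adjusted p = 0.0556).

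Il1r1, the signalling receptor of interleukin 1, read 1010.2 and 1035 with vehicle, 886 and 793 with FGF15, and 1241 and 1169.9 with FGF19 (1448950_at). Vehicle lies between the hormone groups, which do not overlap. It fell with FGF15 by -0.28 ± 0.07 (adjusted p = 0.035), was not called with FGF19 at 0.23 (adjusted p = 0.067), and was higher with FGF19 than with FGF15 by 0.51 ± 0.07 (adjusted p = 0.0031). The FGF15 call was lost without vehicle replicate 1 or 2 (adjusted p = 0.139 and 0.173) or without FGF15 replicate 2 (0.199), whereas the difference between the hormones passed with any single array left out.

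The IκB genes followed the same order of groups. Nfkbia, which encodes IκBα, the cytoplasmic inhibitor of NF-κB, read 839.5 and 814 with vehicle, 765 and 646 with FGF15, and 1047 and 907 with FGF19 (1420088_at), with FGF19 above FGF15 by 0.45 ± 0.09 (adjusted p = 0.024). Probe set 1448306_at read 238 and 255, then 225 and 246, then 323 and 365, and 1449731_s_at read 313 and 368, then 324 and 327, then 506 and 453. On these, FGF19 exceeded vehicle by 0.43 and 0.46 and FGF15 by 0.49 and 0.51 (adjusted p = 0.013 to 0.020 over all probe sets), and FGF15 lay within 0.06 of vehicle. The dim probe set 1420089_at, between 41.4 and 84.2, was not called.

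Nfkbiz, which encodes the nuclear cofactor IκBζ, read 186 and 204 with vehicle, 123 and 146 with FGF15, and 259.7 and 221 with FGF19 (1417483_at). It fell with FGF15 by -0.45 ± 0.11 (adjusted p = 0.029) and was higher with FGF19 than FGF15 by 0.71 ± 0.11 (adjusted p = 0.0055), as on its other probe set (0.65, adjusted p = 0.049 over all probe sets). The fall with FGF15 was lost without vehicle replicate 1 or 2 (adjusted p = 0.0822 and 0.156) or without FGF15 replicate 1 (0.13). Without FGF19 replicate 1 the hormone differences were lost for Nfkbiz (adjusted p = 0.0737) and Nfkbia (0.164), the latter also without FGF15 replicate 2 (0.121). Of the receptor genes, Tnfrsf1a, the main receptor of tumour necrosis factor, ranged from 544 to 749 and was not called, at 0.00 and 0.21.

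Cd14, the endotoxin co-receptor of myeloid cells, read 133 and 146 with vehicle, 52.8 and 68.1 with FGF15, and 96.8 and 74.2 with FGF19 (1417268_at). The hormone arrays are below vehicle without overlap. The fall was -0.90 ± 0.15 (adjusted p = 0.0030), 1.86-fold, with FGF15 and -0.55 ± 0.15 (adjusted p = 0.032), 1.47-fold, with FGF19. The FGF19 call was lost without vehicle replicate 1 or 2 or without FGF19 replicate 2. It was also lost with quantile normalization (limma adjusted p = 0.0728), centring on array medians (0.0936) and cyclic loess (0.0806). It held in 10 of the 18 alternative settings, over which the difference ran from -0.69 to -0.41. Kupffer cell markers fell on the same arrays, as given above, and neutrophil markers had a summed signal of 641 to 673 with vehicle, 306 to 357 with FGF15 and 507 to 544 with FGF19. Of 8 neutrophil markers measured 5 were bright enough to be tested, of which 3 fell with FGF15 and 1 with FGF19, and Camp and Cxcr2 had a mean signal under 14.0. The part of these cells in the fall of Cd14 was not tested.

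Cxcl1, a neutrophil-attracting chemokine that hepatocytes also make, rose in steps. It read 2634 and 2522 with vehicle, 2961 and 3093 with FGF15, and 4117 and 4218 with FGF19 (1419209_at). All 3 groups are apart. The rise was 0.23 ± 0.06 with FGF15 (adjusted p = 0.044) and 0.69 ± 0.06 with FGF19 (adjusted p = 9.2e-05), 1.61-fold, and the difference between hormones was 0.46 ± 0.06 (adjusted p = 0.0026). The smaller rise with FGF15 was lost when any vehicle or FGF15 array was left out (adjusted p of 0.0977 to 0.25).

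The upstream windows of Cxcl1 (chr5:90890995-90891244 on the plus strand) and Nfkbia (chr12:55492648-55492897 on the minus strand), 2 genes with higher signals under FGF19 than under FGF15, are shown for their NF-κB matches, in capitals.
Cxcl1: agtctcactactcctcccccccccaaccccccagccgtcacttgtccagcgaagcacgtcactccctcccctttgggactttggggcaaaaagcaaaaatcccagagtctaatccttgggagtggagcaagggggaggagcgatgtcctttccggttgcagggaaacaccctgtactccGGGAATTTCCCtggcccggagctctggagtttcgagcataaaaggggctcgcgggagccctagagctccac
Nfkbia: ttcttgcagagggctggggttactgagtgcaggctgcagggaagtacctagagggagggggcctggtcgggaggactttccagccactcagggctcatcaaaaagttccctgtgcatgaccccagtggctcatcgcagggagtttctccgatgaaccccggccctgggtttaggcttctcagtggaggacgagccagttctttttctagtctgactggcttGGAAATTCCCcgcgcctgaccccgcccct
The match in Cxcl1 begins 71 bases before the start and overlaps one on the other strand, and that in Nfkbia begins 29 bases before the start. The consensus was found in 4 of the 30 windows (13.3%), those of Cxcl1, Nfkbia, Steap4 and Il1r1. It was found in 8.23% of all genes with a window (7.25% of windows). Saa3 and Lcn2, also higher with FGF19 than with FGF15, have windows without it, and Steap4 holds it and was not called between the hormones.

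Vcam1, an adhesion molecule of endothelium and Kupffer cells, read 251 and 249 with vehicle, 146 and 136 with FGF15, and 150.2 and 159.9 with FGF19 (1415989_at), a fall of -0.70 ± 0.09 (adjusted p = 0.0010) and -0.59 ± 0.09 (adjusted p = 0.0028). Its probe sets split for FGF19: 1448162_at read 179 and 184, then 90.7 and 80.7, then 169 and 159, which is -0.86 with FGF15 but -0.12 with FGF19 and 0.74 between them (adjusted p = 0.0041 over all probe sets), whereas 1451314_a_at read 143 and 144, then 88.3 and 54.9, then 91.6 and 63.3, at -0.78 and -0.70. The fall with FGF15 was thus seen on all 3 and that with FGF19 on 2. Icam1, the adhesion molecule bound by leukocyte integrins, ranged from 73.8 to 117 and was not called. Of 12 endothelial markers 1 (Lyve1) fell with FGF15, beside the Kupffer cell counts given above; the part of these cells in the fall of Vcam1 was not tested.

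**Figure D5:**
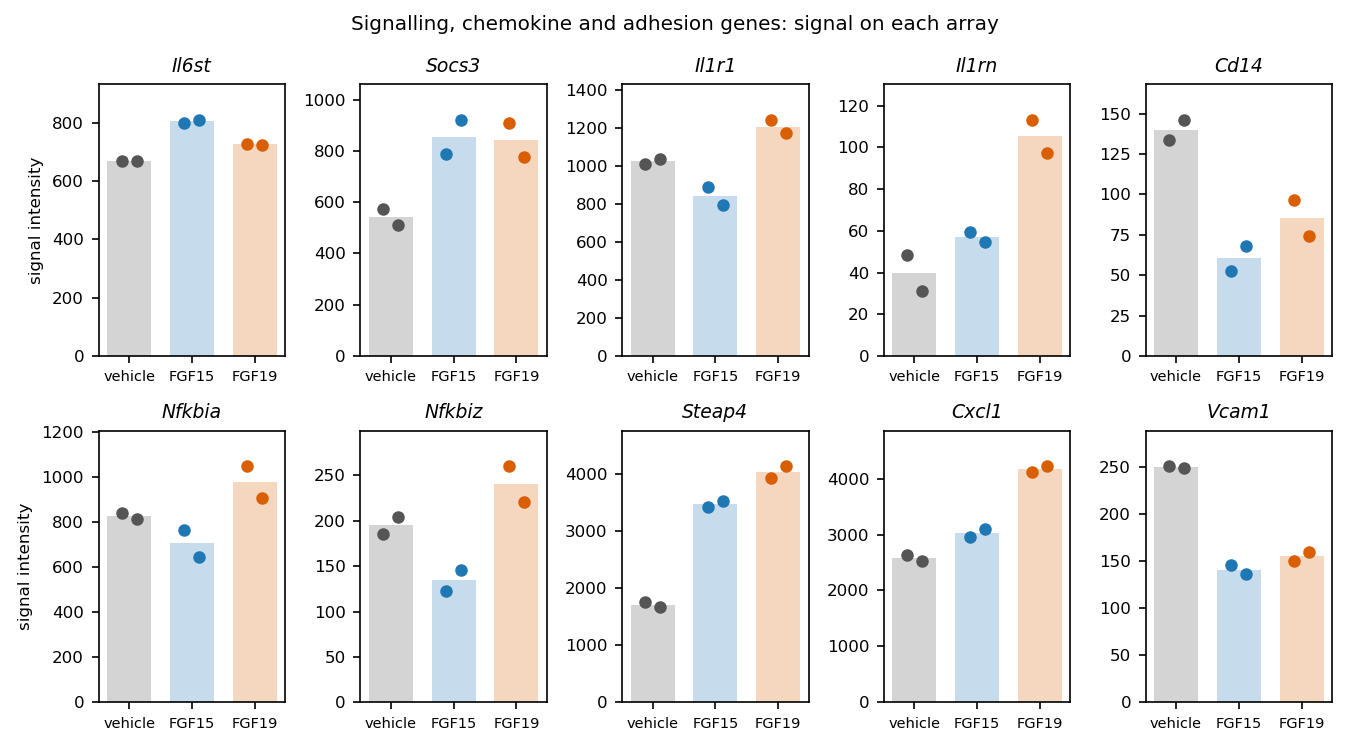
Signal intensity (linear, from 0) on each array for the 10 signalling, chemokine and adhesion genes called in at least 1 comparison; points are arrays, in the order replicate 1 and 2, and pale bars are group means. Socs3 and Steap4 are high on all 4 hormone arrays, Cd14 and Vcam1 are low on them, and Il1r1, Nfkbia and Nfkbiz have FGF15 below and FGF19 above vehicle.

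Other genes of these pathways were counted for context. The shares of all genes tested that were called are 5.91% higher and 6.67% lower with FGF15, 6.29% and 7.27% with FGF19, and 2.41% and 1.89% between the hormones. Among 26 further acute phase and plasma protein genes 3 rose and 3 fell with FGF15, and 3 rose and 6 fell with FGF19, with medians of -0.10 and -0.14. Hamp2, a paralogue of the iron hormone hepcidin on a probe set that may bind related transcripts (1436643_x_at), rose by 0.94 and 0.98, from 1127 and 1174 with vehicle to 2368 and 2106 with FGF15 and 2236 and 2350.4 with FGF19. The zinc importer Slc39a14 rose by 0.32 and 0.42, and the fibrinogen-like hepatokine Fgl1 fell by -0.46 and -0.56. Serpina10, the protein Z-dependent protease inhibitor (1424758_s_at), rose with FGF15 only, by 0.43, and was lower with FGF19 than FGF15 by -0.43 (adjusted p = 0.0061).

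Beside the same shares, among 22 further genes of interleukin 6 type cytokines and JAK-STAT signalling 1 rose and 7 fell with FGF15, and 5 rose and 3 fell with FGF19. Between the hormones 5 were higher with FGF19 and 1 lower. Cebpb and Cebpd, which encode C/EBP factors, fell with FGF15 and rose with FGF19. Saa3 and Orm2, whose windows hold the C/EBP motif, fell with either hormone, and a link between these genes and the factors was not tested. Cebpd read 234 and 237 with vehicle, 181 and 174 with FGF15, and 493 and 459 with FGF19, at -0.35 and 0.93, and FGF19 exceeded FGF15 by 1.28 ± 0.08 (adjusted p = 1.9e-05). Cebpb read 2424 and 2584, then 1873 and 1874, then 3098 and 3089, at -0.41, 0.30 and 0.71 (adjusted p = 0.00015 for the last). The AP-1 gene Junb rose with FGF19 only (0.92; 0.00 with FGF15), and FGF19 exceeded FGF15 by 0.92 (adjusted p = 0.00063). Socs2, a cytokine-inducible inhibitor of growth hormone signalling, fell with both, by -0.49 and -1.14, from 1194 and 1215 to 768 and 934 and to 503 and 559. Lifr, the leukaemia inhibitory factor receptor that pairs with gp130, fell by -0.48 and -0.49, and the IκB family gene Bcl3 rose by 0.50 and 0.32.

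Among 28 further genes of interleukin 1, tumour necrosis factor and NF-κB signalling 2 rose with each hormone, beside 5.91% and 6.29% of all genes. These were Myd88, the adaptor of the interleukin 1 and Toll-like receptors, at 0.58 and 0.45, and Il1rap, the accessory chain of the interleukin 1 receptor, at 0.24 and 0.23. The list medians, -0.04 and -0.03, were near those of all genes tested.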

How the data were processed

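Liver RNA of 6 arrays was analysed, 2 per group as their titles assign them. The deposited values are signal intensities, linear, 1 per probe set and array; per the values, the authors scaled each array to a trimmed mean (2% off each end) of about 200.1, and the summarising software is not given in the sources used here. Of 22690 probe sets, 64 were controls, 20380 had 1 gene, 691 several and 1555 no listed gene; only those with 1 gene were used (20351 renamed through Entrez identifiers in RefSeq's GRCm38.p6 table, 29 by platform symbol).

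Signals became log2(signal + 32). Each gene took its probe set of highest mean, genes under the 25th percentile (a signal of about 14.0) were dropped, which removed 2708, and limma 3.58.1 in R 4.3.3 (lmFit, eBayes with intensity trend, group as the only term, all 6 arrays, 3 residual and 6.83 prior degrees of freedom) gave two-sided p-values adjusted by Benjamini-Hochberg over 9685 genes. Probe sets other than the brightest were tested in a fit of all probe sets. The number of arrays limits precision: the median SE was 0.13. The script was tested on simulated data. Alternatives were other offsets, normalizations, filters, ways to combine probe sets, variance models, a replicate block, leaving out each array, and a threshold of 0.10. The 38 genes, pathway lists and marker lists were chosen with earlier results of these data known. All 38 genes are named, with every array value where a gene was called or its probe sets disagree, and the pathway genes named are the called ones of smallest p, up to 3 per list and hormone; Orm3 was added after its values were seen. Promoter windows are RefSeq's for GRCm38.p6, and matches were sought in the 250 bases before each start (NF-κB consensus: its name's usual degenerate form). A probe set whose name ends in _s_at or _x_at may bind related transcripts. Protein sequences were not analysed here. Python 3.11.15 and matplotlib 3.10.9 drew the figures.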

Additional observations from a re-analysis of the deposited data

Results flagged for a closer look

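In 6 genes the FGF15 and FGF19 differences from vehicle had opposite signs and FGF19 differed from FGF15 by limma's test. How many of all genes meet this rule was not counted. FGF19 minus FGF15 was -0.55 for Saa4, 0.31 for Lcn2, -0.40 for Crp, 0.51 for Il1r1, 0.45 for Nfkbia and 0.71 for Nfkbiz. In Saa4 and Crp the hormone on the other side lay within 0.02 of vehicle, so the opposite signs there say little. In Il1r1 and Nfkbiz FGF15 differed from vehicle and FGF19 did not (limma adjusted p = 0.067 and 0.17 with FGF19). Those FGF15 calls were lost when either vehicle array was left out. In Lcn2, and in Nfkbia on its brightest probe set, neither hormone alone differed from vehicle by the test. On the Nfkbia probe sets 1448306_at and 1449731_s_at FGF19 exceeded vehicle by 0.43 and 0.46 (limma adjusted p = 0.017 and 0.013 over all probe sets). FGF15 gave -0.06 and -0.05 on them, so opposite sides of vehicle are not seen there. The dim probe set 1420089_at was not called.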

How the results depend on the processing

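The calls among the 37 genes numbered 5 higher and 8 lower for FGF15, 5 and 9 for FGF19, and 6 and 3 for FGF19 against FGF15. Of these 36 calls none changed direction under any of the 18 alternative settings, and 14 held under all of them. With quantile normalization 8 rose with FGF15, and over all genes 620 did, in place of 572. With centring on array medians 8 rose and 4 fell with FGF15, and 13 rose and 4 fell with FGF19, beside the all-gene counts given above. With cyclic loess 14 fell with FGF19, and over all genes 618 did, in place of 704. With no filter on low signals 5 fell with either hormone, and over all genes 483 fell with FGF15 and 536 with FGF19. With no intensity trend 3 rose and 4 fell with FGF15, 4 fell with FGF19, and 0 were higher (9 at an unadjusted p under 0.05) and 1 lower between the hormones. Over all genes the fit with no intensity trend gave 242 higher and 393 lower with FGF15 and 434 lower with FGF19. Between the hormones it gave 110 higher and 53 lower. With only the arrays compared 16 fell with FGF15, and over all genes 617 did, in place of 646. At a threshold of 0.10, 15 fell with FGF19, and the number over all genes is not given here. With one array left out the counts ran from 2 to 7 and 4 to 16 for FGF15, 4 to 6 and 4 to 18 for FGF19, and 3 to 6 and 2 to 12 between the hormones. With only the arrays compared, the FGF15 differences from vehicle were those of the main fit. What changed was the estimate of spread, which the main fit shares across all 3 groups. Orm1 stayed at -0.32, with a limma adjusted p of 0.0050 in place of 0.0498. The cause of the other changes was not tested. Deviations of arrays with the same replicate number were little correlated across genes (0.08, -0.02 and 0.05). This does not settle whether those arrays were handled together. With the replicate block the counts were 6 and 9, 5 and 12, and 7 and 3, with all 36 calls held. Signals below about 32 are compressed by the offset, which limits Il1rn, Cd14 and the dim probe sets of Stat3, Cp and Nfkbia.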
